A study of Ciona robusta with 6 samples.

Results

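Across 6 RNA-seq libraries of the sea squirt Ciona robusta, 29 of 17822 gene models stood higher in control library Tyr_3 and CRISPR libraries Rnf149_1 and Rnf149_2 than in control libraries Tyr_1 and Tyr_2 and CRISPR library Rnf149_3. This pattern crosses the guide groups, since each side of it holds libraries of both. The models were selected on their own measured levels: a mean of at least 10 CPM (counts scaled to a common library total) over the 6 libraries, and a lowest value in Tyr_3, Rnf149_1 and Rnf149_2 of at least 1.3 times the highest value in the other libraries. Of 8496 models that met the minimum on the mean, the 29 make up 0.341%. Their levels, their ratios and their order between the sides are therefore a description and carry no test.

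The study compared embryos after CRISPR/Cas9 mutagenesis of Rnf149 (3 libraries, titled Rnf149) with controls (3 libraries, titled Tyr), all 20 h after fertilization. Each library came from 1000 cells sorted out of dissociated embryos, per the labels' protocols, and the series' design text places the mutagenesis in the cardiopharyngeal lineage. No other allele or agent is given in the labels, and neither the promoter that drives Cas9 nor the marker used for the sort is stated there. In tunicates this lineage descends from founder cells on both sides of the embryo and yields the heart and the muscles of the atrial siphon, a relation shared with the heart and pharyngeal muscles of vertebrates. CRISPR/Cas9 cuts in the embryo make a mosaic of edited and unedited cells, so a library averages over both. RNF149 belongs to the RING finger proteins, of which many attach ubiquitin to other proteins.

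The identifiers follow the KY2019 gene models and are paired with no gene names in the files. None of the 17822 models (0), and so none of the 29, matched the RefSeq gene table of assembly ASM961781v2, which lists 21486 genes. The function of these models, the cell type markers and the edited gene itself were therefore not analysed here, and the sorted cell type was not checked against its markers. In libraries made from many cells, fewer cells of a type and less RNA per cell cannot be told apart.

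Library totals ran from 18127682 to 22115917 counts and did not separate the sides, with 20820454, 18127682 and 22115917 in Tyr_3, Rnf149_1 and Rnf149_2 against 20771781, 21875639 and 19350064 in Tyr_1, Tyr_2 and Rnf149_3. Composition scaling factors by TMM (trimmed mean of M values, which offsets a few abundant models that take up reads) lay between 0.944 in Tyr_2 and 1.03 in Tyr_1. With totals multiplied by these factors the same rule gave 27 models, 23 of them among the 29. The 6 models lost in this way had ratios of at most 1.39, and in 5 of them Tyr_2 was the highest of the low libraries.

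The 29 models were of low to moderate abundance. Their mean levels ran from 10.02 to 102 CPM with a median of 17.4 CPM, against a median of 50.4 CPM over the 8496 models. In all, 17 of them lay under 20 CPM, 10 between 20 and 50 CPM, and 2 above 50 CPM. Together they took 18822, 16222 and 21344 counts in Tyr_3, Rnf149_1 and Rnf149_2, and 8891, 10240 and 9697 counts in Tyr_1, Tyr_2 and Rnf149_3. As a summed level this was 904, 895 and 965 CPM on the high side and 428, 468 and 501 CPM on the low side. The mean count per model ran from 204 to 2099, and 3 models had a count under 100 in at least 1 library.

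**Figure D1:**
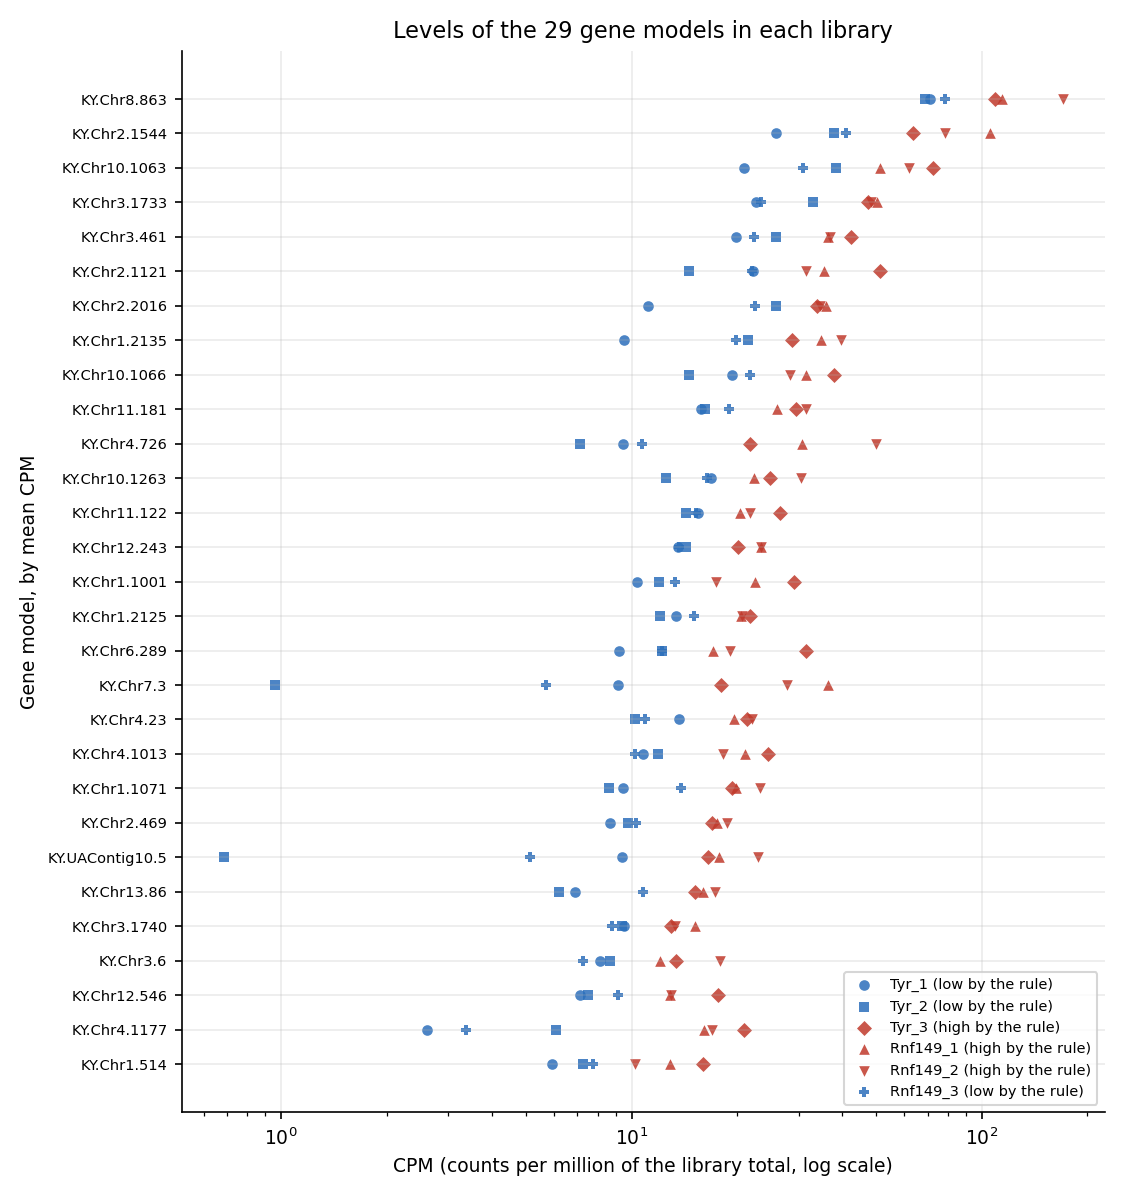
Level of each of the 29 gene models in the 6 libraries, in CPM on a log scale, 1 row per model ordered by mean CPM; red marks are Tyr_3, Rnf149_1 and Rnf149_2, blue marks are Tyr_1, Tyr_2 and Rnf149_3. Red lies to the right of blue in every row by the rule, and KY.Chr7.3 and KY.UAContig10.5 stand out by a Tyr_2 value under 1 CPM.

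The gap between the sides was narrow for most of the 29. The ratio of the lowest high value to the highest low value had a median of 1.40, was under 1.5 in 22 models and reached 2 in 2 of the 29. KY.Chr4.1177, on chromosome 4, had the widest gap. Its level was 21.0, 16.1 and 17.0 CPM in Tyr_3, Rnf149_1 and Rnf149_2, against 2.60, 6.08 and 3.36 CPM in Tyr_1, Tyr_2 and Rnf149_3, a ratio of 2.64. The second widest belonged to KY.Chr4.726, also on chromosome 4, with 21.8, 30.7 and 49.7 CPM on the high side and 9.44, 7.13 and 10.7 CPM on the low side, a ratio of 2.03. In the first model Tyr_3 was the highest library, and in the second it was the lowest of the high side.

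KY.Chr7.3 and KY.UAContig10.5 came next, and both were nearly missing from one control library. KY.Chr7.3 stood at 18.01, 36.4 and 27.8 CPM in Tyr_3, Rnf149_1 and Rnf149_2, and at 9.15, 0.96 and 5.68 CPM in Tyr_1, Tyr_2 and Rnf149_3. KY.UAContig10.5, the single member on an unassigned contig, stood at 16.6, 17.7 and 22.9 CPM on the high side and at 9.39, 0.686 and 5.12 CPM on the low side. The Tyr_2 values rest on 21 and 15 counts. Within the low side these models varied 9.53-fold and 13.7-fold, which is more than their whole gap to the high side (ratios of 1.97 and 1.77).

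KY.Chr2.469, on chromosome 2, was the most even of the widely separated models, with 17.0, 17.5 and 18.8 CPM on the high side and 8.67, 9.74 and 10.3 CPM on the low side. KY.Chr2.1544, also on chromosome 2, was graded, with 63.5, 106 and 78.4 CPM in Tyr_3, Rnf149_1 and Rnf149_2 and 25.8, 37.9 and 40.9 CPM in Tyr_1, Tyr_2 and Rnf149_3. Their ratios were 1.65 and 1.55. KY.Chr4.1013, on chromosome 4, had 24.4, 21.1 and 18.3 CPM against 10.8, 11.9 and 10.2 CPM and a ratio of 1.53, and it completes the 7 models at or above 1.5.

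Counting error was set beside each ratio. The 95% exact (Clopper-Pearson) interval of the ratio, formed from the 2 counts that set it, lay above 1 in 29 of the 29 and above 1.3 in 8. The rule asked for a ratio of at least 1.3 in these same counts. A lower bound above 1 therefore follows largely from the selection and is no support for the pattern. These intervals address counting error only, and they leave out the choice of the extreme libraries. They treat reads as independent. Amplified reads without molecular identifiers are not independent molecules, so the intervals can be too narrow even for counting error. For KY.Chr8.863, the most abundant member, the interval ran from 1.295 to 1.48 around a ratio of 1.38. For KY.Chr1.514, the least abundant one, named after its values were seen, it ran from 1.07 to 1.63 around 1.32.

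**Figure D2:**
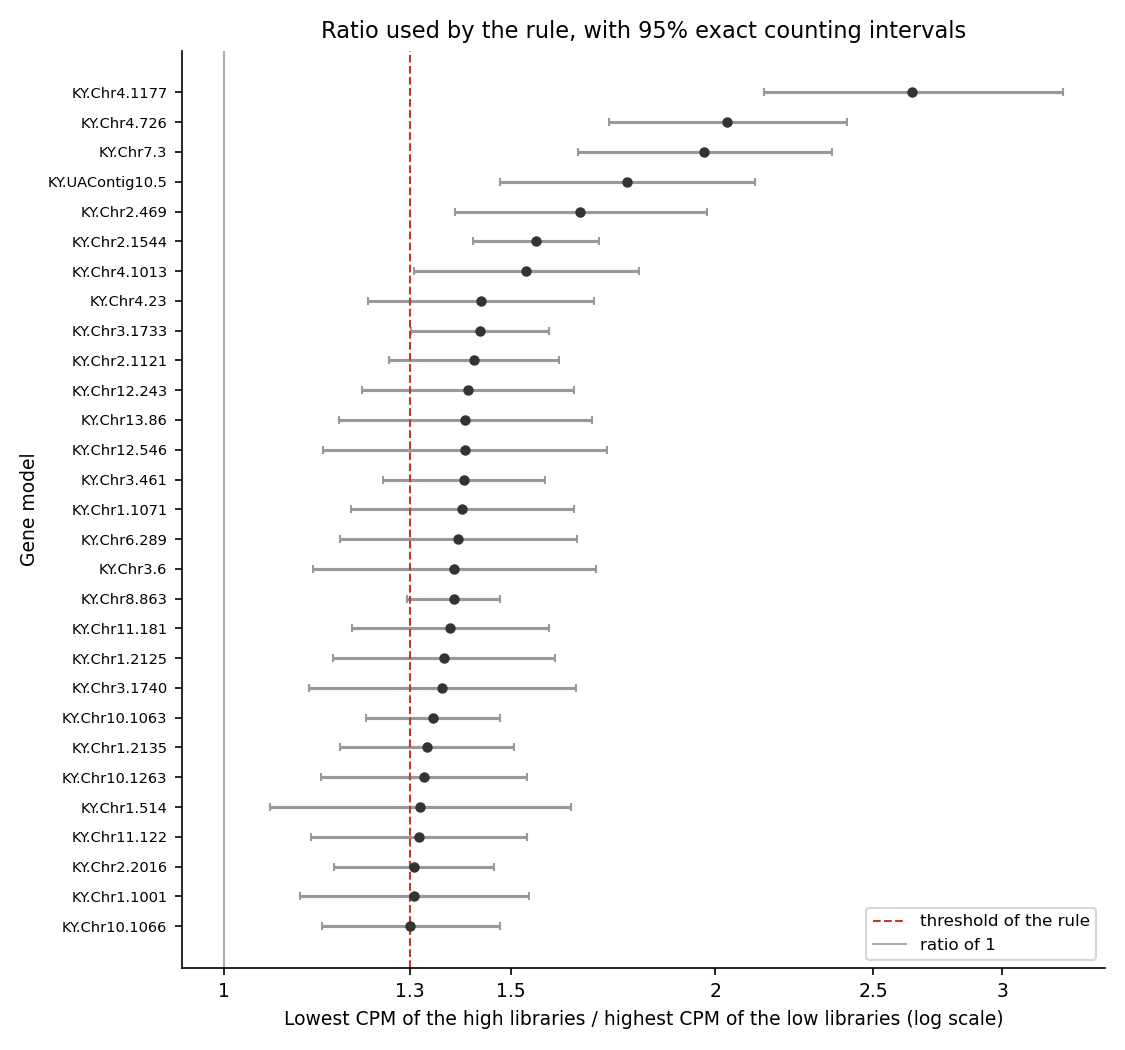
Ratio of the lowest CPM in Tyr_3, Rnf149_1 and Rnf149_2 to the highest CPM in Tyr_1, Tyr_2 and Rnf149_3 for each of the 29 gene models, on a log scale; bars are 95% exact counting intervals, the dashed line is the threshold of 1.3 and the grey line a ratio of 1. For 21 of the 29 the bar reaches down to the threshold or below it.

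Models at the threshold differed little across it. Just inside lay KY.Chr10.1066 (ratio 1.301), KY.Chr1.1001 (1.307) and KY.Chr2.2016 (1.307). Just outside lay KY.Chr3.1172 (1.296), KY.Chr5.195 (1.294) and KY.Chr8.1084 (1.281), which are not members. KY.Chr3.1172 had 58.8, 68.5 and 58.8 CPM in Tyr_3, Rnf149_1 and Rnf149_2 against 45.4, 39.1 and 38.1 CPM in Tyr_1, Tyr_2 and Rnf149_3. Under TMM-scaled totals KY.Chr3.1172 and KY.Chr5.195 were among the 4 models that entered.

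Among the high libraries, Tyr_3 was highest in 12 of the 29, Rnf149_2 in 12 and Rnf149_1 in 5. As shares these are 41.4%, 41.4% and 17.2%, against 43.9%, 27.6% and 28.5% of the 8496 models. The shares come from the values that the rule read, and they were not tested. In the 12 that peaked in Tyr_3, a control library set the top of the range. KY.Chr10.1063, on chromosome 10, was the most abundant of these, with 72.7 CPM in Tyr_3, 51.3 in Rnf149_1 and 61.8 in Rnf149_2, against 21.0, 38.2 and 30.9 CPM in Tyr_1, Tyr_2 and Rnf149_3. KY.Chr2.1121, on chromosome 2, was spread more widely within the high side, with 51.3 CPM in Tyr_3 and 35.5 and 31.5 CPM in Rnf149_1 and Rnf149_2. Its low libraries stood at 22.1, 14.6 and 22.02 CPM. A flatter example was KY.Chr3.461, on chromosome 3, with 42.4, 36.3 and 36.8 CPM on the high side and 19.9, 25.9 and 22.4 CPM on the low side.

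KY.Chr1.1001 and KY.Chr10.1066 ran in the same order as KY.Chr2.1121 on the high side. The first had 29.1, 22.5 and 17.4 CPM in Tyr_3, Rnf149_1 and Rnf149_2 and 10.4, 12.0 and 13.3 CPM in Tyr_1, Tyr_2 and Rnf149_3. The second had 37.8, 31.4 and 28.3 CPM and 19.4, 14.6 and 21.8 CPM. KY.Chr11.122 kept its low side within 1.09-fold, at 15.5, 14.3 and 15.2 CPM, below 26.5, 20.4 and 21.8 CPM on the high side. KY.Chr1.2125, with 21.8, 20.6 and 20.7 CPM, was the most even of all 29 on the high side, at a spread of 1.06-fold, and its low libraries held 13.4, 12.1 and 15.1 CPM.

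In the 12 models that peaked in Rnf149_2, the lead of that library varied. KY.Chr8.863, on chromosome 8, had 170.2 CPM in Rnf149_2, while Tyr_3 and Rnf149_1 had 109 and 114 CPM. Its low libraries were close together at 71.2, 68.7 and 78.6 CPM. KY.Chr4.726 had the widest spread of any member within the high side, 2.28-fold from Tyr_3 to Rnf149_2. KY.Chr12.243, on chromosome 12, had the tightest low side, 13.6, 14.3 and 13.6 CPM in Tyr_1, Tyr_2 and Rnf149_3, under 20.1, 23.3 and 23.5 CPM.

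The 5 models that peaked in Rnf149_1 include KY.Chr7.3 and KY.Chr2.1544. KY.Chr3.1733, on chromosome 3, had nearly equal high values of 47.2, 50.3 and 48.2 CPM, and 22.6, 32.9 and 23.5 CPM on the low side. KY.Chr2.2016, on chromosome 2, was as even on the high side, at 33.8, 35.9 and 34.4 CPM, but its low values of 11.2, 25.8 and 22.5 CPM were spread by Tyr_1. KY.Chr1.2135, which peaked in Rnf149_2 and is named after its values were seen, had the same low side shape, with 9.53, 21.5 and 19.9 CPM. The 11 members outside the rule for names had ratios of 1.32 to 1.44 and mean levels of 10.02 to 25.7 CPM.

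The median spread of the members within a side was close to that of all models at the minimum. The highest of the 3 high libraries exceeded the lowest by a median of 1.34-fold in the 29, against 1.37-fold over the 8496 models. Within the low side the medians were 1.33-fold and 1.34-fold. The low side spread over more than 2-fold in 5 members, and the high side in 2. The share of the 8496 models past 2-fold was not computed. The comparison was not matched for level, with a median of 17.4 CPM in the 29 against 50.4 CPM. The spread also comes from the values that the rule read, so the selection can act on it.

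The study's own comparison, CRISPR against control libraries, was fitted over all models with edgeR's quasi-likelihood test. All 29 entered the fit, and 0 passed an adjusted p under 0.05, where 0.0508% of the 13789 models tested did. At an unadjusted p under 0.05 it was again 0 of 29, against 11.5% of all models. DESeq2 called 0 of the 29 (4.26% of all models) and limma-voom 0 (0.0218%). Both guide groups have libraries on each side of the pattern, which widens their spread for these models by the rule, so nothing is read from these counts. The fitted log2 fold change was above 0 in 28 of the 29 with a median of 0.30, against a median of -0.02 and 47.6% above 0 over all tested models, and this sign is partly fixed too, since 2 of the 3 high libraries are CRISPR libraries. With 1 library left out, 18 of the 29 lay above 0 without Tyr_1, 21 without Tyr_2, 29 without Tyr_3, 23 without Rnf149_1, 19 without Rnf149_2 and 29 without Rnf149_3. The exception to the sign was KY.Chr6.289 (log2 fold change -0.14, SE 0.46), named after its values were seen, with 31.6 CPM in Tyr_3 against 17.0 and 19.0 CPM in Rnf149_1 and Rnf149_2.

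The lowest p-values among the 29 belonged to KY.Chr4.726 and KY.Chr2.1544. The controls averaged 12.8 ± 7.86 CPM of KY.Chr4.726 (SD, n = 3) and the CRISPR libraries 30.4 ± 19.5 CPM (SD, n = 3), a log2 fold change of 1.26 (SE 0.61, edgeR adjusted p = 0.488). KY.Chr2.1544 averaged 42.4 ± 19.3 and 75.0 ± 32.5 CPM, a log2 fold change of 0.81 (SE 0.43, edgeR adjusted p = 0.531). The rule places Rnf149_3 under Tyr_3 in every member, so the guide groups overlap in all 29 by construction.

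At the other end stood the 4 models with the smallest fold changes, a number set by the rule for names. For KY.Chr2.1121 the means were 29.3 ± 19.4 CPM over controls and 29.7 ± 6.94 CPM over CRISPR libraries (SD, n = 3), a log2 fold change of 0.01 (SE 0.43). KY.Chr11.122 (log2 fold change 0.02, SE 0.31), KY.Chr1.1001 (0.03, SE 0.42) and KY.Chr4.1013 (0.06, SE 0.40) were alike in this. In these 4 models Tyr_3 was the highest library of the 6.

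Guides can also be set side by side within each side of the pattern, where the gap between the sides does not enter the difference. The rule read these same values, so its selection can still act on the order within a side. Within the high side, the mean log2 CPM of Rnf149_1 and Rnf149_2 lay above Tyr_3 in 15 of the 29 and below it in 14, with a median difference of 0.06 and a range from -0.81 to 0.84. Within the low side, Rnf149_3 lay above the mean log2 CPM of Tyr_1 and Tyr_2 in 21 and below it in 8, with a median of 0.24 and a range from -0.24 to 1.01. Over the 8496 models, 46.2% were higher in CRISPR libraries within the high side (median -0.04) and 56.7% within the low side (median 0.05). Both differences were positive in 11 of the 29, both negative in 4, and of opposite sign in the rest. Over the 8496 models, 30.03% were positive on both sides and 27.2% negative on both. These are single libraries against 1 or 2 others, and no test was made. The levels are CPM without the TMM factors, which were 1.03 for Tyr_1, 0.944 for Tyr_2 and 1.02 for Rnf149_3. On the high side the factors were 1.01 for Tyr_3, 1.02 for Rnf149_1 and 0.982 for Rnf149_2.

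**Figure D3:**
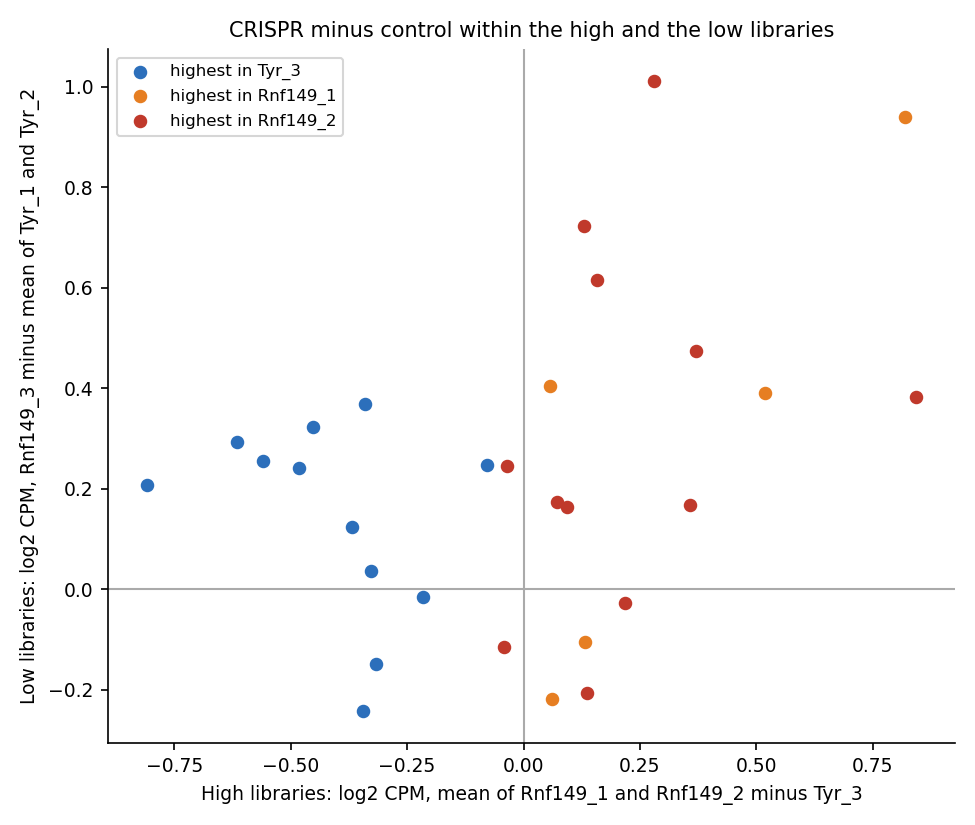
Each point is 1 of the 29 gene models; the x axis is the mean log2 CPM of Rnf149_1 and Rnf149_2 minus that of Tyr_3, the y axis is log2 CPM of Rnf149_3 minus the mean of Tyr_1 and Tyr_2, and the colour is the library with the highest value. Points fall in all 4 quadrants, with 11 positive on both axes and 4 negative on both (over the 8496 models, 30.03% and 27.2%).

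In the order of the low libraries, Tyr_1 was lowest in 14 of the 29, Tyr_2 in 12 and Rnf149_3 in 3. Over the 8496 models these libraries were lowest of the 3 in 24.5%, 47.3% and 28.3%, and in the 29 in 48.3%, 41.4% and 10.3%. No test was made of these shares, which come from the same values that the rule read.

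By position, 28 of the 29 lay on chromosomes and 1 on an unassigned contig. Chromosome 1 held 5, chromosomes 2, 3 and 4 held 4 each, chromosome 10 held 3, chromosomes 11 and 12 held 2 each, and chromosomes 6, 7, 8 and 13 held 1 each. None (0) lay on chromosomes 5, 9 and 14, which have 577, 598 and 449 of the 8496 models. As shares of their models at the minimum, chromosomes 1, 2, 3 and 4 held 0.45%, 0.535%, 0.478% and 0.645%. Chromosomes 10, 11 and 12 held 0.552%, 0.311% and 0.419%. Chromosomes 6, 7, 8 and 13 held 0.28%, 0.176%, 0.16% and 0.446%. The share over the 8496 models was 0.341%, and no test of position was made. No 2 members had consecutive numbers. The nearest were KY.Chr10.1063 and KY.Chr10.1066, 3 numbers apart, then KY.Chr3.1733 and KY.Chr3.1740, 7 apart, and KY.Chr1.2125 and KY.Chr1.2135, 10 apart. The highest library was Tyr_3 in both models of the first pair, Rnf149_1 in both of the second, and Tyr_3 and Rnf149_2 in the third.

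No model (0) numbered directly next to a member was itself a member. There were 57 such neighbours, of which 26 met the minimum of 10 CPM. The 31 below it could not be members, and their order varied. KY.Chr10.1262, next to KY.Chr10.1263, had 10.3, 6.67 and 6.92 CPM on the high side and 4.33, 4.34 and 1.14 CPM on the low side. KY.Chr4.1014, next to KY.Chr4.1013, had 0.672, 4.41 and 4.16 CPM against 4.09, 3.47 and 5.27 CPM. No other summary of those 31 was made. In 3 of the 26 at the minimum (11.5%) every high library lay above every low one, against 8.29% of the 8496 models. The largest ratio among the 26 was 1.06. That ratio belonged to KY.Chr2.2015, next to KY.Chr2.2016, with 141, 115 and 130.3 CPM on the high side and 109, 93.4 and 88.0 CPM on the low side. Another 2 of the 26 (7.69%) met the reverse rule, high in Tyr_1, Tyr_2 and Rnf149_3, against 3.11% of the 8496 models. KY.Chr6.290, next to KY.Chr6.289, had 2.31, 3.09 and 3.98 CPM in Tyr_3, Rnf149_1 and Rnf149_2 and 19.1, 49.96 and 17.7 CPM in Tyr_1, Tyr_2 and Rnf149_3. KY.Chr4.1176, next to KY.Chr4.1177, had 7.49, 8.99 and 6.92 CPM against 15.2, 83.1 and 13.6 CPM. The strand setting of the counting is not stated, so reads of overlapping models on opposite strands may have been split or lost. Whether any of the models named here overlap is not known, and this was not tested.

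The reverse pattern, high in Tyr_1, Tyr_2 and Rnf149_3, was the closest comparison. With no margin (a ratio of at least 1) the counts were alike, 704 models for the pattern described here and 705 for the reverse. At 1.3 they were 29 and 264, at 1.5 they were 7 and 184, and at 2 they were 2 and 98. The 264 had a median ratio of 1.72, a median level of 33.1 CPM and a highest mean level of 4090.5 CPM, where the 29 had 1.40, 17.4 and 102 CPM. Under TMM-scaled totals the counts were 27 and 265. The 264 took 4.32%, 11.2% and 2.75% of the counts of Tyr_1, Tyr_2 and Rnf149_3, and 0.758%, 1.13% and 0.733% of Tyr_3, Rnf149_1 and Rnf149_2. A larger share taken by some models lowers the CPM of all others in that library, and the part of this in the 29 was tested only by the TMM scaling above. The same rule applied to the guide groups gave 174 models higher and 87 lower in all CRISPR libraries. No test was made of the difference between these counts.

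**Figure D4:**
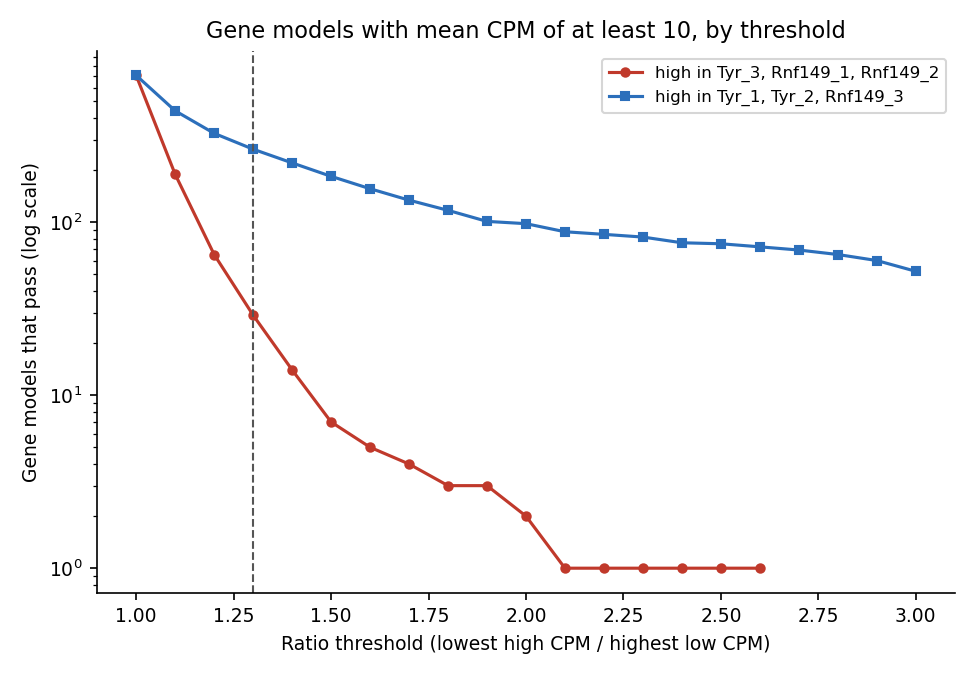
Number of gene models with a mean of at least 10 CPM that pass each ratio threshold (log scale on the y axis), for the pattern high in Tyr_3, Rnf149_1 and Rnf149_2 (red) and its reverse (blue); the dashed line is the threshold of 1.3. The curves start together at 704 and 705 models and part to 29 and 264 at the dashed line; red points end at 2.6, beyond which 0 models pass.

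The rule was also applied without each library in turn. Applied to 5 libraries, the rule gave 273 models without Tyr_3, 85 without Tyr_1, 84 without Rnf149_3, 75 without Tyr_2, 63 without Rnf149_2 and 54 without Rnf149_1. A rule over fewer libraries asks for less, so each of these counts had room only to grow, apart from models whose mean moved across the minimum. Of the 29, between 25 and 29 still passed in each of these versions. Without Tyr_3 the high side is made of CRISPR libraries alone.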

How the data were processed

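Per the labels' protocols, RNA from sorted cells was turned into cDNA with a template-switching kit for low input. The authors deposited 1 table of raw counts, whole reads per KY2019 gene model with no normalization, in 6 columns matched to samples by title. STAR 2.7.0a, featureCounts (Subread) and DESeq2 are listed in the submitters' processing notes. Genome build, strand setting and the treatment of reads with several matches were not given in the sources used here.

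CPM was computed from the column totals. The members and the rule for names were chosen with earlier results of these data known. The names follow the largest ratios, the highest levels, the lowest p-values, the smallest fold changes, the threshold and the spread within sides. No run of consecutive members existed to name. CRISPR and control libraries were compared in R 4.3.3 with edgeR 4.0.16 (filterByExpr, TMM, robust quasi-likelihood fit, 2-sided test, Benjamini-Hochberg over all models tested, threshold 0.05), which was checked on simulated data. Alternatives used DESeq2 1.42.0 on all rows and limma-voom (limma 3.58.1), other scaling and filters, a replicate block, and the removal of each library. The lists of cell type markers were not applied, because no identifier could be paired with a gene name. The labels do not state whether replicates were separate collections of embryos; p-values then measure only how far these samples vary, which may be technical. Library totals ran from 18127682 to 22115917 counts.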

Additional observations from a re-analysis of the deposited data

How the results depend on the processing

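The count of 29 members was 27 with TMM-scaled totals (23 shared) and 29 with all libraries thinned to the lowest total (26 shared). It was 7 at a ratio of 1.5, 2 at a ratio of 2, 2 at a minimum mean of 50 CPM and 231 with no minimum, each by the rule's own construction. Leaving out 1 library gave 54 to 273. In the guide comparison 0 members were called in 11 of 11 alternatives, which called 549 models in all with DESeq2, 60 without Rnf149_3 and 0 to 12 in the others. The rule widens the guide groups' spread for the members, so these counts of 0 show no stability. The lowest adjusted p of any member ran from 0.219 without Rnf149_3 to 0.828 without Rnf149_2. At an unadjusted p under 0.05 there were 6 members without Tyr_3, 3 without Rnf149_3, 2 with DESeq2 and 0 in the others. The share of all models at this threshold was 11.5% in the main fit and is not given for the alternatives. Without Tyr_3 every control lies on the low side, and without Rnf149_3 every CRISPR library lies on the high side. The rule itself then favours a CRISPR difference, so nothing is read from these counts. Among the 4 models with the smallest fold changes, the log2 fold change changed sign when 1 library was left out, over -0.24 to 0.62 for KY.Chr1.1001, -0.11 to 0.34 for KY.Chr11.122, -0.29 to 0.67 for KY.Chr2.1121 and -0.16 to 0.51 for KY.Chr4.1013. The cause was not tested. With the replicate number as a block 0 members were called, and 0 of all 13789 models. For replicate numbers 1, 2 and 3, the correlation of deviations from the group mean was -0.033, -0.123 and -0.270. The closest library in the other group bore the same number in 0 of 6 cases, and the numbers were not taken to pair libraries. The median member had a mean of 355 counts per library, which limits its ratio more than those of abundant models.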
